A study of Homo sapiens with 12 samples.

Results

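To ask where the first DNA synthesis of S phase changes when CDK12 is silenced in cells whose MycER was left inactive, early replicated regions (ERRs) of shNT and shCDK12 cells were compared on the 22 autosomes. The lists held 3796 autosomal ERRs in shNT and 4799 in shCDK12, 8595 regions of the 18185 in the 4 lists of the series. ERRs that overlapped one to one, by at least 1 bp and with no further partner on either side, were matched, which gave 2897 pairs. The others were divided, joined or found in one list only, and all of them are accounted for below.

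The cells are U2OS, a human osteosarcoma line, and every group carried the MycER fusion and received doxycycline at 1 µg/mL to switch on its hairpin. The hairpin was non-targeting in shNT and aimed at CDK12 in shCDK12. Neither group received OHT, the ligand of MycER. A second pair of groups, shNT_OHT and shCDK12_OHT, had the same hairpins with 300 nM OHT during 40 h. This pair is used here as a separate measurement of silencing. Its lists also serve as a reference for the density, presence and division of regions. In all groups mitotic cells were shaken off after an 8 h arrest in nocodazole at 100 ng/mL, then grown during 24 h with EdU at 25 µM and hydroxyurea at 2 mM. Each condition had 3 samples, and the deposited list of a condition merges them, so no difference below has a replicate error and none was tested. The labels do not say how many different hairpins or cell clones stand behind the 3 samples of a group. The assay reads DNA, so the level of CDK12 itself could not be checked in these samples.

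CDK12 is a kinase that, together with cyclin K, phosphorylates the tail of RNA polymerase II while it transcribes. Its loss is known to weaken the expression of long genes and of genes of DNA repair. Replication starts from origins that fire in a set order, and those that fire first tend to lie in open chromatin rich in active genes. EdU is a nucleoside that is built into new DNA and can be captured through a chemical tag. Hydroxyurea depletes nucleotides and holds the forks close to the origins that fired first, so the captured reads pile up at the earliest regions. The density of reads in an ERR therefore reflects how often the cells of the culture had copied it under the block, but it also depends on copy number and on the background of the library, which were not measured.

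In shNT the ERRs covered 442 Mb of the autosomes and held 17261176 reads, and in shCDK12 they covered 452 Mb and held 13220717 reads. Matched pairs made up 76.3% of the shNT list (Wilson 95% interval 74.9 to 77.6, counting error only, as for all intervals below) and 60.4% of the shCDK12 list (59.0 to 61.7). A further 394 ERRs of shNT (10.4%) overlapped 2 or more regions of shCDK12, 281 shared a partner with another shNT region, and 224 (5.90%) had no partner. In shCDK12, 175 regions overlapped 2 or more of shNT, 755 shared a partner and 972 (20.3%) had none. Most places that replicate early in shNT cells thus did so after silencing as well, and most of the unpaired regions belonged to the silenced cells. The lowest score was 146 in shNT and 66.1 in shCDK12, and 1049 of the 4799 regions of shCDK12 scored below the lowest of shNT.

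The density of an ERR was its reads over its width. The median matched ERR had 23.4 reads per kb in shNT and 19.7 in shCDK12, and each list was divided by its own median, so a relative density of 1 is the typical matched ERR. The log2 ratio of relative densities, shCDK12 over shNT, had quartiles of -0.24 and 0.22 and ran from -0.63 at the 5th percentile to 0.53 at the 95th over the 2897 pairs. A relative density at least 1.5-fold lower was seen in 178 pairs (6.14%), and one at least 1.5-fold higher in 98 (3.38%).

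A narrow region that meets the edge of a broad one gives a large ratio from its width alone. Of the 285 pairs that were under 10 kb in either list or overlapped by less than 50% of the wider region, 32 differed by 2-fold or more, and in all 32 the denser region was the narrower one. None of these 32 differed by 2-fold in scaled reads. The description below therefore uses the 2612 broad pairs, except by chromosome and where all matched pairs are named. Among these, 144 (5.51%) had lost at least 1.5-fold of their relative density and 62 (2.37%) had gained it. A loss of 2-fold or more was found in 15 pairs (0.574%), and no pair gained as much (0.00%). Losses outnumbered gains and reached further, as the plot of relative densities shows. This split rests on the scaling. When the lists were divided by their total reads in autosomal regions instead, every log2 ratio rose by 0.14, and 64 broad pairs were lower and 183 higher. All ratios below are relative to the typical matched ERR.

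**Figure D1:**
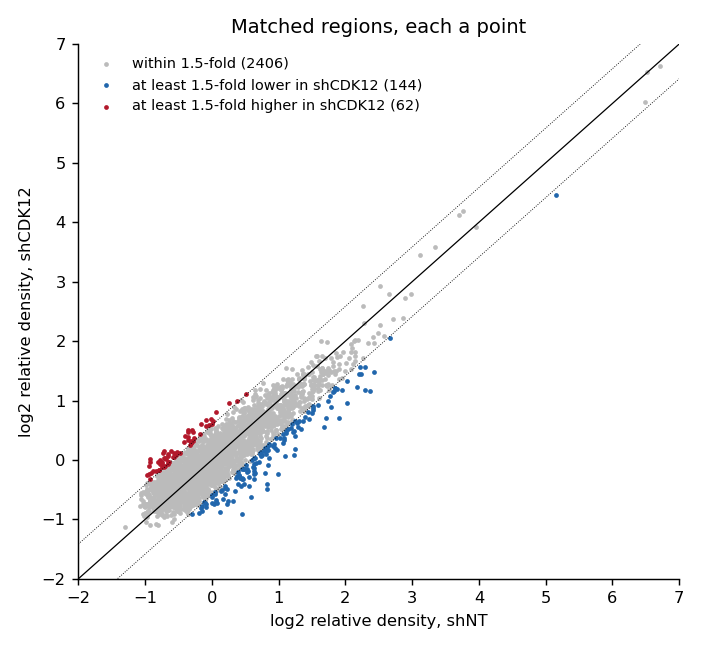
Log2 relative density of the 2612 broad matched ERRs in shNT (horizontal axis) and shCDK12 (vertical axis), each point a pair; the solid line marks equal values and the dotted lines mark 1.5-fold. Along the shNT axis the 144 pairs that lost density (blue) lie toward the dense end, with a median relative density of 1.72. The 62 that gained (red) lie toward the sparse end, with a median of 0.672. In shCDK12 the medians are 1.04 and 1.08. Both axes enter the ratio by which pairs were coloured.

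The strongest losses fell on 10 regions of 7 chromosomes, whose ratio ran from 0.390 to 0.463. They were dense in shNT, with relative densities of 1.37 to 5.15 and a median of 2.17, and in shCDK12 their median was 0.95. The shNT density enters the ratio, so choosing low ratios favours regions dense in shNT. The lowest ratio was at chr12:89428001-89497200 (hg19, as all positions here, counted from 1). This ERR held 2214 reads over 69.2 kb in shNT and 371 reads over 35.2 kb in shCDK12. Its relative density went from 1.37 to 0.534, a ratio of 0.390 (0.349 to 0.436, the exact interval of the read counts). It had both thinned and narrowed.

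The densest of the 10 was chr5:135280801-135473200, with 23140 reads over 192.4 kb in shNT and 6970 reads over 158.4 kb in shCDK12. Its relative density fell from 5.15 to 2.23, a ratio of 0.433 (0.422 to 0.445). Close behind was chr2:238006001-238269200, which went from 4.90 to 2.27 at nearly the same width (263.2 and 251.6 kb), a ratio of 0.463 (0.453 to 0.473). Both stayed more than 2-fold above the typical ERR after silencing. The ERR at chr1:209500001-209620800 behaved alike, from 3.75 to 1.64 (ratio 0.436). So did chr11:678801-949200 near the start of its chromosome, from 3.22 to 1.46 (0.455).

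The other members of the 10 were weaker at the outset and ended below or near the typical ERR. On chromosome 21, chr21:35302801-35457600 went from 1.98 to 0.845 (ratio 0.427). On chromosome 6, chr6:106015201-106076400 went from 1.78 to 0.753 (0.423), and on chromosome 11, chr11:131184401-131258800 went from 1.49 to 0.651 (0.436). Those on chromosomes 6 and 11 narrowed as well, from 61.2 to 33.6 kb and from 74.4 to 40.0 kb. The remaining pair lay on the long arm of chromosome 5, at chr5:83200001-83237200, which went from 1.77 to 0.715 (0.404), and chr5:86388801-86462000, which went from 2.35 to 1.06 (0.448).

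Those regions of chromosome 5 formed, with chr5:82851601-82886800 (ratio 0.654), one of the 2 longest runs of neighbours that had all lost 1.5-fold, 3 consecutive broad pairs across 3.61 Mb. The other run was on chromosome 21, where the 3 consecutive pairs between 35302801 and 39718000 had ratios of 0.427, 0.630 and 0.570 across 4.42 Mb. A further run, of 2 neighbours within 0.136 Mb, was at chr9:21584001-21720400, with ratios of 0.509 and 0.627. In all, 38 of the 144 losing regions lay in 18 runs of 2 or 3, and 8 of the 62 gaining regions in 4 runs of 2. Most changed regions stood between neighbours that had not passed 1.5-fold in the same direction.

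The 10 largest gains lay on 7 chromosomes, with ratios of 1.72 to 1.92. They were sparse in shNT, with relative densities of 0.522 to 0.816 that rose to 0.927 to 1.42 in shCDK12. Choosing high ratios likewise favours regions sparse in shNT. The largest was at the very start of chromosome 17, chr17:801-63200, with 767 reads over 62.4 kb in shNT and 1822 reads over 91.6 kb in shCDK12. Its relative density went from 0.526 to 1.01, a ratio of 1.92 (1.76 to 2.09). It was wider as well as denser in the silenced cells, the reverse of the region on chromosome 12.

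At equal width, chr17:65226801-65335200 rose from 0.605 to 1.11 (108.4 and 108.8 kb, ratio 1.84). The ERR chr9:130212001-130272800 rose to 1.08 at 60.8 kb in both lists (ratio 1.81). On chromosome 2, chr2:24984001-25022800 rose from 0.781 to 1.41 (1.81) and stood beside chr2:24578401-24711600, which rose from 0.606 to 1.03 (1.69). These neighbours and the pair at chr20:35543201-35814800 (1.75 and 1.63) and at chr15:78358401-78866000 (1.53 and 1.52) were the leading runs of gains. The others of the 10 were chr22:18030801-18077200 (1.84), chr1:168164401-168206000 (1.78), chr1:27462401-27568800 (1.78), chr17:59991601-60024800 (1.74) and chr15:56277201-56316400 (1.72). None of the 10 rose above 1.42 times the typical density.

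The choice of length mattered for some of these. With the reads of both lists divided by the union span of the pair, the ratio at chr1:168164401-168206000 was 1.06, because that ERR was 41.6 kb wide in shNT and 24.0 kb in shCDK12, and the one at chr20:35543201-35625200 was 1.35. The other 18 of the 20 stayed past 1.5-fold in their direction. Where the width had changed in the same direction as the density, the ratio grew more extreme. At 4 such regions it moved by more than 1.5 times, from 0.390 to 0.206 at chr12:89428001-89497200, from 0.423 to 0.241 at chr6:106015201-106076400 and from 0.436 to 0.243 at chr11:131184401-131258800. The gain at chr17:801-63200, the last of the 4, went from 1.92 to 2.91. The threshold itself cut through a continuous range: chr14:68674001-68756800 (0.666) and chr4:182854401-182913600 (0.667) were just past it on the lower side, and chr4:122600401-122668800 and chr6:134726001-134777600 (both 0.667) just short of it. On the higher side chr16:18929201-19024000 (1.501) and chr1:44807601-44850000 (1.505) were just past, with chr10:74848401-74885200 (1.499) and chr4:83922001-83967600 (1.498) just short.

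For reference, the matched ERRs with the most reads in shNT did not belong to either set. The broadest of the 3, chr17:47907601-48815600, 908 kb wide, went from a relative density of 4.32 to 3.08 (ratio 0.712), a loss short of 1.5-fold. The others, chr10:42354801-42410000 and chr2:132994801-133044400, were only 55.2 and 49.6 kb wide and held 115312 and 105576 reads in shNT. Their relative densities were 89.4 and 91.1 in shNT, 64.8 and 92.9 in shCDK12, 70.9 and 84.7 in shNT_OHT, and 63.9 and 77.2 in shCDK12_OHT. Such pile-ups were present in all 4 lists, and they do not weigh on the medians used for scaling.

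**Figure D2:**
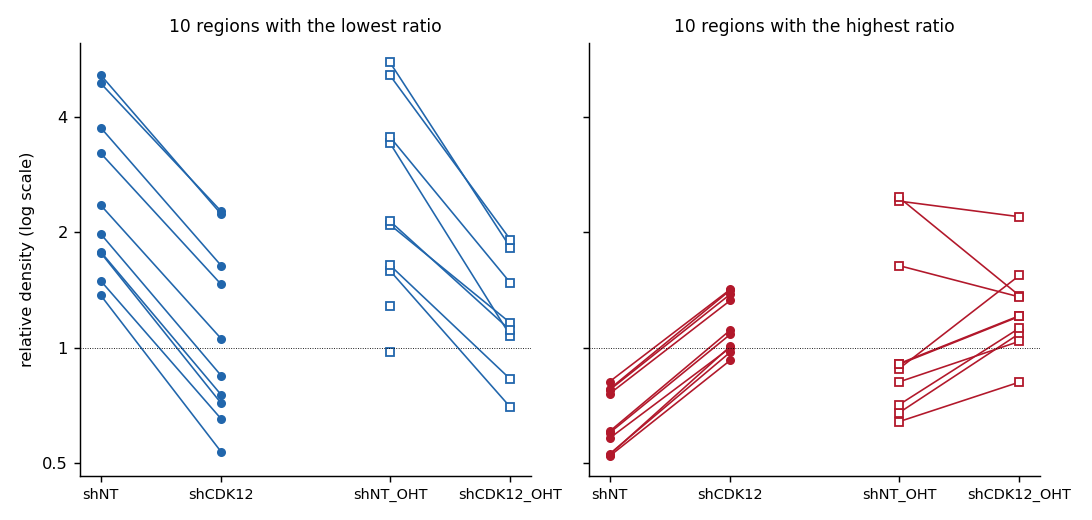
Relative density (log scale) of the 10 ERRs with the lowest ratio (left) and the 10 with the highest (right); lines join shNT to shCDK12 (filled circles) and shNT_OHT to shCDK12_OHT (open squares), and regions without an ERR in shCDK12_OHT have a single square. All 8 losing regions with both values fall again with OHT, and 7 of the 10 gaining regions rise again.

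Losing regions were denser than gaining ones in shNT_OHT, but not in shCDK12_OHT. In shNT_OHT, whose reads enter neither list, the 144 losing regions had a median relative density of 1.76 and the 62 gaining ones 0.884. Over 2603 broad pairs with a region there it was 1.16. In shCDK12_OHT the medians were 1.11 for the 136 losing regions with a region there and 1.23 for the 62 gaining ones. Over 2549 broad pairs it was 1.14. The broad pairs were ranked by their density in shNT_OHT and put into 5 equal classes. The median log2 ratio of shCDK12 over shNT was 0.13 in the lowest class, 0.08 in the second, 0.01 in the middle one, -0.06 in the fourth and -0.20 in the highest. The ratio was thus graded with the density of a region in shNT_OHT, as the plot of ratios by class shows. These cells carry the same hairpin as shNT, whose density is the denominator of the ratio. A density particular to cells with that hairpin would give such a grading too, which was not tested.

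The share of pairs at least 1.5-fold lower rose over the same classes from 0.384% to 1.92%, 5.57%, 7.50% and 12.3%, around the 5.51% of all broad pairs. The share at least 1.5-fold higher was 3.45%, 4.42%, 2.50%, 1.15% and 0.384%, around 2.37%. Spearman's rho between the ratio and the density in shNT_OHT was -0.35 over 2603 regions, which share the cell line, the hairpin vector and the caller. The range of densities was also narrower after silencing: the SD of log2 relative density over broad pairs was 0.77 in shNT and 0.69 in shCDK12, and the 95th percentile of relative density was 2.85 and 2.41. A change of contrast between the libraries and a loss at the strongest ERRs cannot be told apart in lists of this kind, and the share of reads outside regions was not analysed here.

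**Figure D3:**
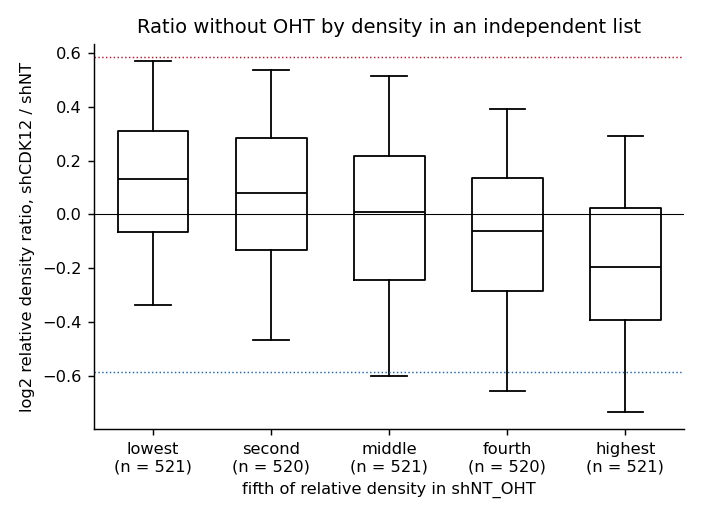
Log2 relative density ratio (shCDK12 over shNT) of broad matched ERRs in 5 classes of rising relative density in shNT_OHT; boxes show quartiles, whiskers the 5th and 95th percentiles, and dotted lines 1.5-fold. The median falls from 0.13 in the lowest class to -0.20 in the highest.

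Losing regions were narrower after silencing in 113 of 144 cases, with a median of 95 kb in shNT and 84.8 kb in shCDK12, while among all broad pairs 1603 of 2612 were narrower and the medians were 75.6 and 73.2 kb. Gaining regions had medians of 76.2 and 74.2 kb. Their surroundings differed too. Within 1 Mb on either side, ERRs of shNT covered a median of 22.0% around losing regions, 31.9% around all broad pairs and 42.8% around gaining ones. In classes of rising cover the share of pairs at least 1.5-fold lower was 8.03% in the lowest and 3.25% in the highest. Losses took a larger share where ERRs stand apart. The median log2 ratio went from -0.06 in the lowest class of cover to 0.02 in the highest without OHT, and from -0.01 to -0.09 with OHT, so the medians moved in opposite directions in the 2 pairs. Distance to the chromosome end was read from the outermost region of the lists. The 111 pairs within 2 Mb had a median log2 ratio of -0.10, against -0.02 to 0.003 in the classes farther in. With OHT the median was -0.24 over the 83 of them matched there, against -0.09 to -0.001 farther in. Without OHT 6.31% of the 111 were at least 1.5-fold lower, near the 5.51% of all broad pairs and the 5.06% to 6.12% of the classes farther in.

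Silencing in cells with active MycER gave a second reading from separate libraries. The pair shCDK12_OHT and shNT_OHT had 3089 matched ERRs, of which 7.70% were at least 1.5-fold lower and 4.14% higher. Of the broad pairs, which overlap by at least 50% of the wider region, 1955 were also matched there and at least 10 kb wide in all 4 lists. Their log2 ratios without and with OHT had a Pearson r of 0.80 and a Spearman rho of 0.78, given as a description, since these regions share the cell line, the hairpins and the caller. Of the 114 that had lost 1.5-fold without OHT, 113 were below 0 with OHT and 80 had lost 1.5-fold there (70.2%, 61.2 to 77.8), while 8.39% of the 1955 had done so. Their median log2 ratio was -0.71 without and -0.72 with OHT. Of the 49 that had gained 1.5-fold, 48 were above 0 with OHT and 15 had gained 1.5-fold (30.6%, 19.5 to 44.5), against 2.15% of the 1955, and their medians were 0.69 and 0.49. The lost density was thus found again at nearly all of these 114 losing regions, of 144 in all. The gains were found again with a smaller size at nearly all of the 49, of 62 in all. The SD of log2 relative density over matched ERRs was also lower with silencing in this pair (1.03 in shNT_OHT, 0.91 in shCDK12_OHT). Whether a change of contrast between libraries underlies the agreement was not tested.

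Without the limits on width and overlap fewer gains kept their side. Over all 2172 pairs matched in both, 128 of 138 losing and 61 of 77 gaining regions kept their side, and Pearson's r was 0.51. Among the 10 strongest losses, 8 had an ERR in both lists with OHT, and their ratios there ran from 0.314 to 0.554. The 2 others, chr5:83200001-83237200 and chr11:131184401-131258800, had relative densities of 1.29 and 0.972 in shNT_OHT and no ERR in shCDK12_OHT. Among the 10 strongest gains the ratio with OHT ran from 0.554 to 1.75. The 3 below 1 were chr1:27462401-27568800, chr20:35543201-35625200 and chr9:130212001-130272800, at places where the shNT_OHT list held broader ERRs of 478, 275 and 769 kb in all, so the values there cover more sequence than the ERR compared without OHT.

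**Figure D4:**
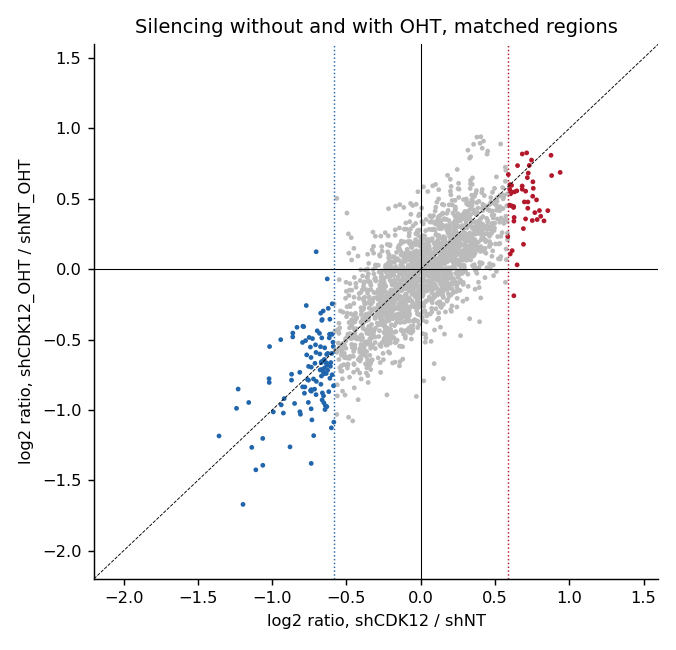
Log2 ratio of silenced over shNT without OHT (horizontal axis) and with OHT (vertical axis) for the 1955 broad ERRs (at least 50% overlap without OHT) matched in both pairs and at least 10 kb wide in all 4 lists. Of the 114 regions past 1.5-fold lower without OHT (blue), 113 lie below 0 with OHT, and of the 49 past 1.5-fold higher (red), 48 lie above it.

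By chromosome, the median log2 ratio of all matched pairs, broad or not, ran from -0.13 on chromosomes 5 and 21 to 0.15 on chromosome 15. These medians were small beside the spread of regions within a chromosome, whose quartiles crossed 0 on all 22. Chromosome 15 stood at the upper end in both pairs, at 0.15 without and with OHT, and chromosome 22 followed with 0.10 and 0.08. On chromosome 15, 12 of 111 pairs were at least 1.5-fold higher (10.8%), against 3.38% of all matched pairs, and 1 was lower. On chromosome 22 no pair of 68 was lower and 4 were higher (5.88%). Losses took the largest share on chromosome 13 (5 of 38 pairs, 13.2%, 5.75 to 27.3) and chromosome 21 (4 of 34, 11.8%, 4.67 to 26.6). Chromosome 3 (20 of 179, 11.2%, 7.35 to 16.6) and chromosome 6 (12 of 108, 11.1%, 6.47 to 18.4) followed. Of all matched pairs 6.14% were lower, a share within the intervals of chromosomes 13 and 21. The medians were below 0 on 13 autosomes without and on 6 with OHT, with the same sign on 15 of 22. On chromosome 13 the sign differed, at -0.06 without and 0.07 with OHT. It differed as well on chromosome 3 (-0.08 and 0.02) and chromosome 6 (-0.04 and 0.05), but not on chromosome 21 (-0.13 and -0.07).

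On a finer scale, neighbouring ERRs resembled each other only weakly. The log2 ratios of adjacent broad pairs had a Pearson r of 0.29 for 758 pairs of neighbours whose centres lay within 0.2 Mb, 0.22 for those 0.2 to 0.5 Mb apart and 0.07 for those over 3 Mb apart, a description over regions of the same lists. In windows of 10 Mb that held at least 8 broad pairs, the median log2 ratio was lowest at 60 to 70 Mb of chromosome 20 (-0.35 over 8 regions) and at 40 to 50 Mb of chromosome 12 (-0.34 over 11). It was highest at 40 to 50 Mb of chromosome 15 (0.37 over 21) and at 60 to 70 Mb of chromosome 7 (0.32 over 11). The window of chromosome 7 had a median of 0.25 with OHT, while that of chromosome 15 had -0.08, so its gain was not found again. Of 143 windows with at least 5 regions in both pairs, 90 had medians of the same sign.

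**Figure D5:**
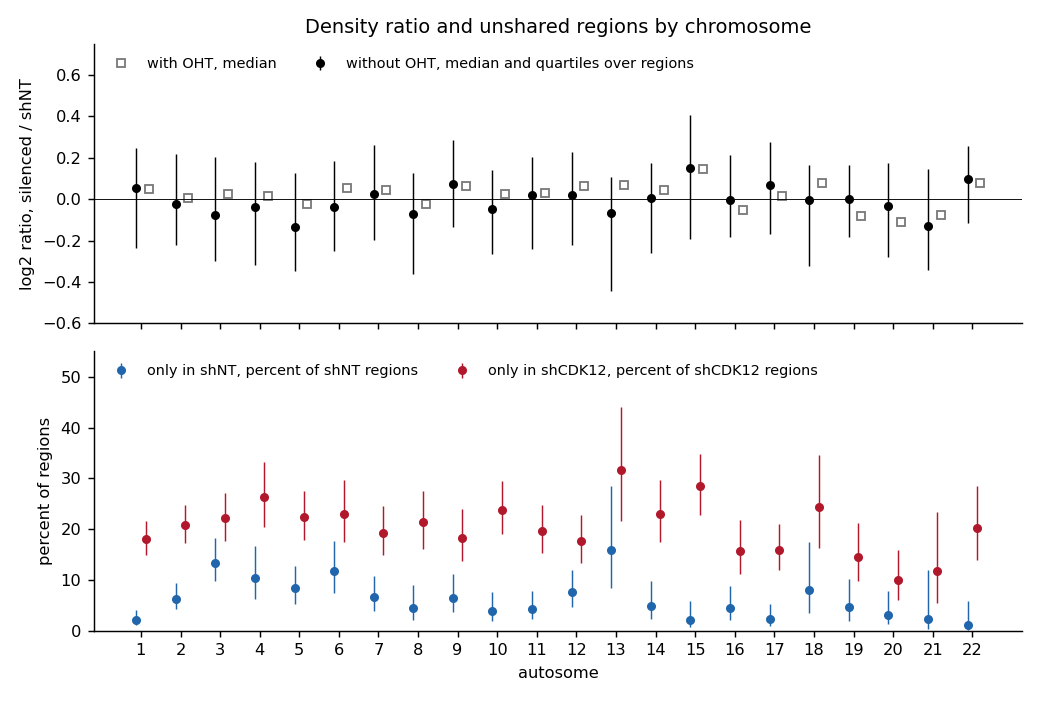
Upper panel: median log2 ratio of all matched ERRs, broad or not, per autosome without OHT (points, bars for quartiles over regions) and with OHT (open squares). Lower panel: percent of the shNT list found only in shNT (blue) and of the shCDK12 list found only in shCDK12 (red), with Wilson 95% intervals; chromosome 13 is highest in both (16.0% and 31.7%).

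Broad early domains were often divided. Of the 394 divided ERRs of shNT, 348 lay over 2 regions of shCDK12, 41 over 3 and 5 over 4, in all 839 pieces. Their median width was 174.6 kb, against 70.4 kb for matched ERRs, and the share divided rose with width from 1.66% of ERRs under 30 kb to 17.5% of those between 100 and 200 kb and 44.7% of those over 500 kb. The share of shCDK12 regions that join several ERRs of shNT rose with width too, from 0.0944% under 30 kb to 38.3% (31 of 81) over 500 kb. The pieces covered a median of 90.1% of the domain. The longest gap had a median of 6.4 kb and was at most 10 kb in 253 of the 394, where 4.4 kb is the shortest gap that the lists show. Most divisions were narrow breaks close to the smallest that can be seen, and joining regions up to 10 kb apart left 247. With only regions at or above the lowest score of shNT kept in both lists, 287 domains were divided and 173 regions of shCDK12 joined several.

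The widest of the 5 domains with 4 pieces was chr7:72920001-74095200, which held 72823 reads in shNT at a relative density of 2.65. In shCDK12 its pieces, of 81.2 to 720.4 kb, held 50599 reads at 2.41, with a longest gap of 56.4 kb. The domain chr11:62130801-62689600 went from 2.56 to 2.13, chr17:7042001-7591200 from 1.89 to 1.58, and chr1:203977201-204506000 from 1.47 to 1.34. Most affected was chr7:115808801-116185600, whose pieces covered 66.5% of the domain with a longest gap of 80.4 kb, and whose density fell from 1.44 to 1.03. In these 5 domains the pieces left after silencing were thinner than the whole had been.

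Division was found again at many of the same places with OHT. At 157 of the 394 divided domains (39.8%, 35.1 to 44.7) the shCDK12_OHT list held 2 or more regions, and at 65 (16.5%) the shNT_OHT list did. At 116 of them there was 1 region in shNT_OHT and 2 or more in shCDK12_OHT, while this was so at 93 of the 2897 matched ERRs, which are narrower. The 5 domains with 4 pieces held 3 or 4 regions in shCDK12_OHT, and 1 or 2 in shNT_OHT. At 209 of the 394, however, both lists with OHT held a single region.

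The opposite, several ERRs of shNT lying under 1 region of shCDK12, was less frequent. It concerned 175 regions, 162 of them over 2 ERRs, with a median width of 209.2 kb and a median longest gap of 6.4 kb. The leading cases were chr1:23662001-24761600, where 4 ERRs at a relative density of 1.71 became 1 region at 1.65, and chr22:24786001-25682000, where 4 at 1.56 became 1 at 1.602. Next came regions over 3 ERRs, one of 1265.2 kb on chromosome 8, chr7:918001-2178400 and chr16:29610801-30200000. Densities on chromosomes 1 and 22 hardly differed between the lists, so the lists differed there in borders more than in density. With OHT the numbers turned, with 287 divided and 353 joining.

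ERRs found only in shNT numbered 224 and were weak. Their width had a median of 42.8 kb and their relative density one of 0.639, and 223 of them scored below the median of their list. The widest lay at chr19:4963601-5096000 (132.4 kb, 12.4 reads per kb), chr1:30102001-30226000 (124 kb, 16.4), chr3:31039601-31157600 (118 kb, 15.9), chr9:4210001-4320400 (110.4 kb, 19.9) and chr2:46147201-46250000 (102.8 kb, 11.4). The first was only 1.2 kb from a region of shCDK12, whereas those on chromosomes 3 and 9 were 270 and 436 kb from the nearest one. Both of these, and the region on chromosome 1, had an ERR in shNT_OHT and none in shCDK12_OHT.

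This pattern held for much of the set. In shNT_OHT 200 of the 224 were present (89.3%, 84.6 to 92.7), and in shCDK12_OHT 71 (31.7%, 26.0 to 38.1), while 98.5% and 93.0% of all shNT ERRs were. In shNT_OHT alone 129 were present, in shCDK12_OHT alone none, and 24 were in neither. The shares were uneven over the genome, with 16.0% of the shNT list of chromosome 13, 13.4% of chromosome 3 and 11.7% of chromosome 6, against 2.20% of chromosome 1 and 1.06% of chromosome 22. Chromosomes 13, 3 and 6 were among those with the largest shares of both thinned and missing ERRs.

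ERRs found only in shCDK12 were more numerous but weaker still. The 972 had a median width of 30 kb and a median of 355 reads, and 644 of them (66.3%, 63.2 to 69.2) scored below the lowest ERR of shNT. They held 3.05% of the reads in the regions of their list. With only regions at or above that score kept in both lists, 328 were found only in shCDK12 and 508 only in shNT, so which list held more of its own turned with this choice. It is not stated whether scores of the lists are on a common scale.

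The widest of them were chr2:111458801-111589200 (130.4 kb, 12.5 reads per kb), chr17:77178001-77291200 (113.2 kb, 10.7), chr10:35500401-35612800 (112.4 kb, 10.8), chr7:4149201-4255600 (106.4 kb, 13.0) and chr3:126057601-126161200 (103.6 kb, 14.6). All 5 had an ERR in shCDK12_OHT, and all but the one on chromosome 7 had one in shNT_OHT. Over the 972, 811 were present in shCDK12_OHT (83.4%, 81.0 to 85.6) and 546 in shNT_OHT (56.2%, 53.0 to 59.3), where 93.8% and 90.2% of all shCDK12 ERRs were. Of the 328 that reached the lowest score of shNT, 94.8% and 75.9% were present. The added ERRs were mostly sites that also appear with OHT, in silenced cells more often than in shNT cells. Their share of the list was largest on chromosome 13 (31.7%) and chromosome 15 (28.4%) and smallest on chromosome 20 (15 of 150 regions). Covered length rose most on chromosome 15, to 1.12 times that of shNT, and fell most on chromosome 21, to 0.937 times.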

How the data were processed

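EdU-HU-seq was done on 12 samples, 3 per condition. The submitters' processing notes name BWA 0.6.2, SAMtools and SICER and the build hg19, without roles; control library and duplicate removal are not given in the sources used here. The authors called regions on merged replicates and deposited 1 list per condition, with a whole read count per region, not scaled to depth, and a score per region of unstated scale. Library depth is not known from the lists; more reads in shNT narrow its counting intervals.

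Overlaps, densities and ratios were computed as described with the results (Python 3.11.15, pandas 2.3.3, numpy 2.4.6, SciPy 1.17.1, matplotlib 3.10.9). Functions were tested on simulated lists. Regions end past the hg38 chromosome on 13 autosomes; the annotation at hand is of hg38, so genes and sequences at the regions were not analysed here. No test was run, since a condition has 1 list. Intervals are Wilson for shares and exact (Clopper-Pearson) for read ratios.

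Named regions are the 10 lowest and 10 highest ratios among pairs at least 10 kb wide and overlapping by at least 50% of the wider one, the 5 most divided and joined, the 5 widest of one list only, the 2 on each side of each threshold, the 3 with most reads and the longest runs. The members, lists and rules were chosen with earlier results of these data known. Alternatives changed overlap, length, scaling, fold, width, score minimum and joining.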

Additional observations from a re-analysis of the deposited data

Results flagged for a closer look

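The median width of all autosomal ERRs in a list differed between silenced and shNT cells in opposite directions without and with OHT. It fell by 18.4 kb without OHT, from 74.8 kb in shNT to 56.4 kb in shCDK12, and rose by 10.4 kb with OHT, from 61.2 to 71.6 kb. Divided minus joining regions likewise came to 219 without OHT (394 and 175) and to -66 with OHT (287 and 353). Neither difference was tested, since each condition has 1 merged list. The median widths cover all regions of each list, not the same regions. Without OHT the matched ERRs differed less, with medians of 70.4 kb in shNT and 67.2 kb in shCDK12. The 972 regions found only in shCDK12 had a median of 30 kb, and 644 of them scored below the lowest ERR of shNT. How much these regions add to the fall of 18.4 kb was not tested.

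Regions outside the autosomes entered no comparison above. The single region of chromosome M held 1587463 reads in shNT and 1576695 in shCDK12. Regions of chromosome X held 147491 reads in shNT (69 regions) and 89726 in shCDK12 (86 regions). Of 45 matched ERRs of chromosome X, 5 were at least 1.5-fold lower (11.1%) and none higher, against 6.14% and 3.38% of the autosomal matched pairs. The median log2 ratio of the 45 was -0.05.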

How the results depend on the processing

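No paired analysis was possible because each condition has 1 merged list whose columns carry no replicate numbers, and for the same reason no replicate could be left out. Of 40 recomputed summaries, 23 stayed close to the reported value and 17 moved. Scaling by total reads put 34.8% of ratios below 0 (50.4% as reported), left 0 autosomes with a median below 0 (13 as reported), and gave 92 lower and 237 higher ERRs in place of 178 and 98. At a fold of 5 to 4 there were 549 lower and 443 higher ERRs, and at 2-fold 31 and 16. With the union span as length there were 443 and 265, by construction, since a change of width then counts, and with at least 10 kb in both lists 64 were higher. Joining regions up to 10 kb apart left 247 divided domains. A common minimum score gave 508 ERRs only in shNT and 328 only in shCDK12. Regions that kept their side with OHT were 99.1% of the losing and 94.3% of the gaining ones when all 4 widths reached 10 kb, and 95.8% of the gaining ones with a reciprocal overlap of 50%. Of the 20 named ERRs, 5 moved by more than 1.5 times under the union span, none across 1.

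Without replicates, an interval covers counting of reads only. Regions below the score floor of a list cannot be told from absent ones, breaks shorter than 4.4 kb are not seen, and density mixes copy number, background and firing.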
